A study of Mus musculus with 14 samples.

Results

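The genes described here are the ABC, SLCO and SLC22 transporters of the mouse, taken as every protein-coding gene whose symbol begins with Abca, Abcb, Abcc, Abcd, Abcg, Slco or Slc22a, apart from Abcb11. The rule found 84 of the 21887 protein-coding genes on chromosomes 1 to 19, X and Y: 16 Abca, 9 Abcb, 10 Abcc, 4 Abcd, 6 Abcg, 14 Slco and 25 Slc22a genes. Names alone made the choice, so ABC genes filed under other symbols (Cftr, Tap1 and Tap2) were not included. Each gene was read over its annotated body with 5 kb on both sides. The livers came from C57BL/6 mice, either carrying a YAP transgene that doxycycline switches on (YAP) or wild type (WT). The labels give 50 mg/L doxycycline in drinking water for 10 days as the way to induce YAP, and state for WT mice neither that they drank it nor that they did not. They also leave out the promoter that drives the transgene, and the age and sex of the mice. Chromatin was immunoprecipitated for H3K4me2 and H3K4me1, which are di- and monomethylation of lysine 4 on histone H3, and for LSD1, an enzyme that takes these methyl groups off. Each antibody was used on 2 replicates of each genotype, with 1 input library per genotype.

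ABC proteins use ATP to drive lipids, bile constituents, drugs and their conjugates across membranes. SLCO proteins, also called organic anion transporting polypeptides, and SLC22 proteins, the organic cation, anion and carnitine transporters, mostly bring solutes into cells without ATP. In a hepatocyte, SLCO and SLC22 proteins of the sinusoidal membrane take up bile acids, bilirubin, steroids and drugs from blood, while ABC proteins of the canalicular membrane export phospholipid, sterols and conjugates into bile. H3K4me2 covers promoters and nearby regulatory DNA of genes in use, and H3K4me1 is typical of enhancers.

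The promoters of 6 of these genes are shown because the results below turn on them. They are RefSeq windows on GRCm38.p6, from 250 bases before to 50 bases after a transcription start, written 5′ to 3′ on the strand of the gene. The lists had no H3K4me2 on the Slco1a1 window in YAP and had it in WT. The windows of Slco1a4 and Slco1b2, its neighbours on chromosome 6, had it in both, as did that of Abcd3, where the difference lay farther inside the gene. The windows of Abcc10 and Abcc5 carried LSD1, in both genotypes at Abcc10 and in YAP only at Abcc5. Capitals mark, on either strand, GTTAAT, one arm of the palindrome that HNF1 binds, AGGTCA, a half-site of nuclear receptors, GGAATG, the core read by TEAD factors, and TTCNNNGAA, the palindrome of STAT factors.
Slco1a1: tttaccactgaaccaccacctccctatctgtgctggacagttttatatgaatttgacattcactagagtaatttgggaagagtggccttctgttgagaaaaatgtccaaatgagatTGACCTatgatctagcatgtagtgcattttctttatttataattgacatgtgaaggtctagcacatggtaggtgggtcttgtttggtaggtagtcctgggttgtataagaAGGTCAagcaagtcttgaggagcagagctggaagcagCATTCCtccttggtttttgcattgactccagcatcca
Slco1a4: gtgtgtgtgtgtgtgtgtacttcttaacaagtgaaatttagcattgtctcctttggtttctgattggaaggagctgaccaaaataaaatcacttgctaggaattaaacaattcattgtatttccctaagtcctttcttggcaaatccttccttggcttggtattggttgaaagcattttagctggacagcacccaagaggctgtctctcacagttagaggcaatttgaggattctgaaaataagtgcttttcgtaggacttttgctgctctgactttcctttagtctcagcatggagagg
Slco1b2: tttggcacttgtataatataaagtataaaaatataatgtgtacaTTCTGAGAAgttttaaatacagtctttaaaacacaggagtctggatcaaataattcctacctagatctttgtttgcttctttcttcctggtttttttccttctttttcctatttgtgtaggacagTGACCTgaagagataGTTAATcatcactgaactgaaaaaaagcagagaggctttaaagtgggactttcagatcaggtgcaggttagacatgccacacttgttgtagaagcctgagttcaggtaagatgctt
Abcd3: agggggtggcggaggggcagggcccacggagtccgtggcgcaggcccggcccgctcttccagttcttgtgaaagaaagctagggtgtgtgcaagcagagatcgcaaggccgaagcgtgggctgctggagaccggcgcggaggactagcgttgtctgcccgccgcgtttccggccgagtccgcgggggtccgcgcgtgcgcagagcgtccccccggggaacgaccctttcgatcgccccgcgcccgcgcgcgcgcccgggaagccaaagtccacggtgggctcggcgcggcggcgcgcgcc
Abcc10: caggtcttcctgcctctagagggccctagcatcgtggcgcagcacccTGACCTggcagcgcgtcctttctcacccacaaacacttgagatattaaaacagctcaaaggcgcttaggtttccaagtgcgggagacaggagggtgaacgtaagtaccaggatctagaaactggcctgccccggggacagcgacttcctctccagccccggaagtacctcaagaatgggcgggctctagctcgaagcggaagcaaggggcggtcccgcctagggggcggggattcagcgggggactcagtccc
Abcc5: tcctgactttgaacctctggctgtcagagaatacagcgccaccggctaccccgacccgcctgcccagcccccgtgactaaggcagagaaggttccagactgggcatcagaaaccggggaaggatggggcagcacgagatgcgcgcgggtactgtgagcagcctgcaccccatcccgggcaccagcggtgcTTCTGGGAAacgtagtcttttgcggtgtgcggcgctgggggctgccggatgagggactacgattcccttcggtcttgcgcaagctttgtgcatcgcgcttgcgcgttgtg
The Slco1a1 window (chr6:141946913-141947212, minus strand) held AGGTCA at 2 places and GGAATG at 1, and that of Slco1b2 (chr6:141629268-141629567, plus strand) held the HNF1, nuclear receptor and STAT letters at 1 place each. None of these letters was found in the windows of Slco1a4 (chr6:141856171-141856470, minus strand) or Abcd3 (chr3:121815253-121815552, minus strand), the second of which is 73.7% G and C. AGGTCA stood once in the Abcc10 window (chr17:46327974-46328273, minus strand) and TTCNNNGAA once in the Abcc5 window (chr16:20426345-20426644, minus strand). A match describes letters and not a bound site.

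The values are 6 deposited lists of enriched regions, 1 per antibody and genotype. Each list stands for both replicates, so nothing measures the spread between replicates, no difference below has a test, and the read depth per library is unknown. H3K4me2 was listed in 51676 regions in YAP and 54219 in WT (49.0 against 52.2 Mb), H3K4me1 in 6274 and 5905, and LSD1 in 2949 and 1500 merged regions. All 8 hepatocyte markers looked at, Alb and Ttr among them, carried H3K4me2 in both lists. Covered bases say how much of a gene the authors' threshold called enriched and not how strong the enrichment was.

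H3K4me2 was the richest of the lists at the transporters. Of the 84 genes, 68 had H3K4me2 in at least one list. YAP livers had fewer covered bases than WT livers at 38 of these, or 55.9%, where the same held for 59.1% of the 14915 protein-coding genes with any, and more at 30, or 44.1%, against 40.8%. By count, then, the transporters stood close to the background. By size they stood lower: the genes summed to 217 kb in YAP and 260 kb in WT, a ratio of 0.835, while all protein-coding genes gave 0.940. The median log2 of YAP over WT, with 500 bases added to each, was -0.13 over the 68 genes and -0.06 over all genes. In whole liver, fewer cells of a type and less of a mark per cell cannot be told apart.

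A small number of genes made up the sum. YAP minus WT came to -63.7 kb over the 38 genes with fewer bases in YAP and to 20.7 kb over the other 30. Abcd3, Slco1a1, Slco1b2, Abca1, Abcb4 and Abcc2 together gave -36.3 kb, most of the net difference of -42.9 kb. Each of these 6 acts in hepatocytes, in peroxisomal import, sinusoidal uptake, HDL formation or secretion into bile. They belong to a set of 20 transporters with known roles in liver, chosen with earlier results of these data known. Over those 20 the sums were 93.7 kb in YAP and 136 kb in WT (13 genes fewer, 7 more, median log2 -0.36), while the remaining 64 members gave 123 kb in YAP and 124 kb in WT (25 fewer, 23 more, median log2 -0.03). Both groups of genes were picked with the outcome known and no test was made, so the sums describe these genes and support no contrast between liver transporters and the rest.

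**Figure D1:**
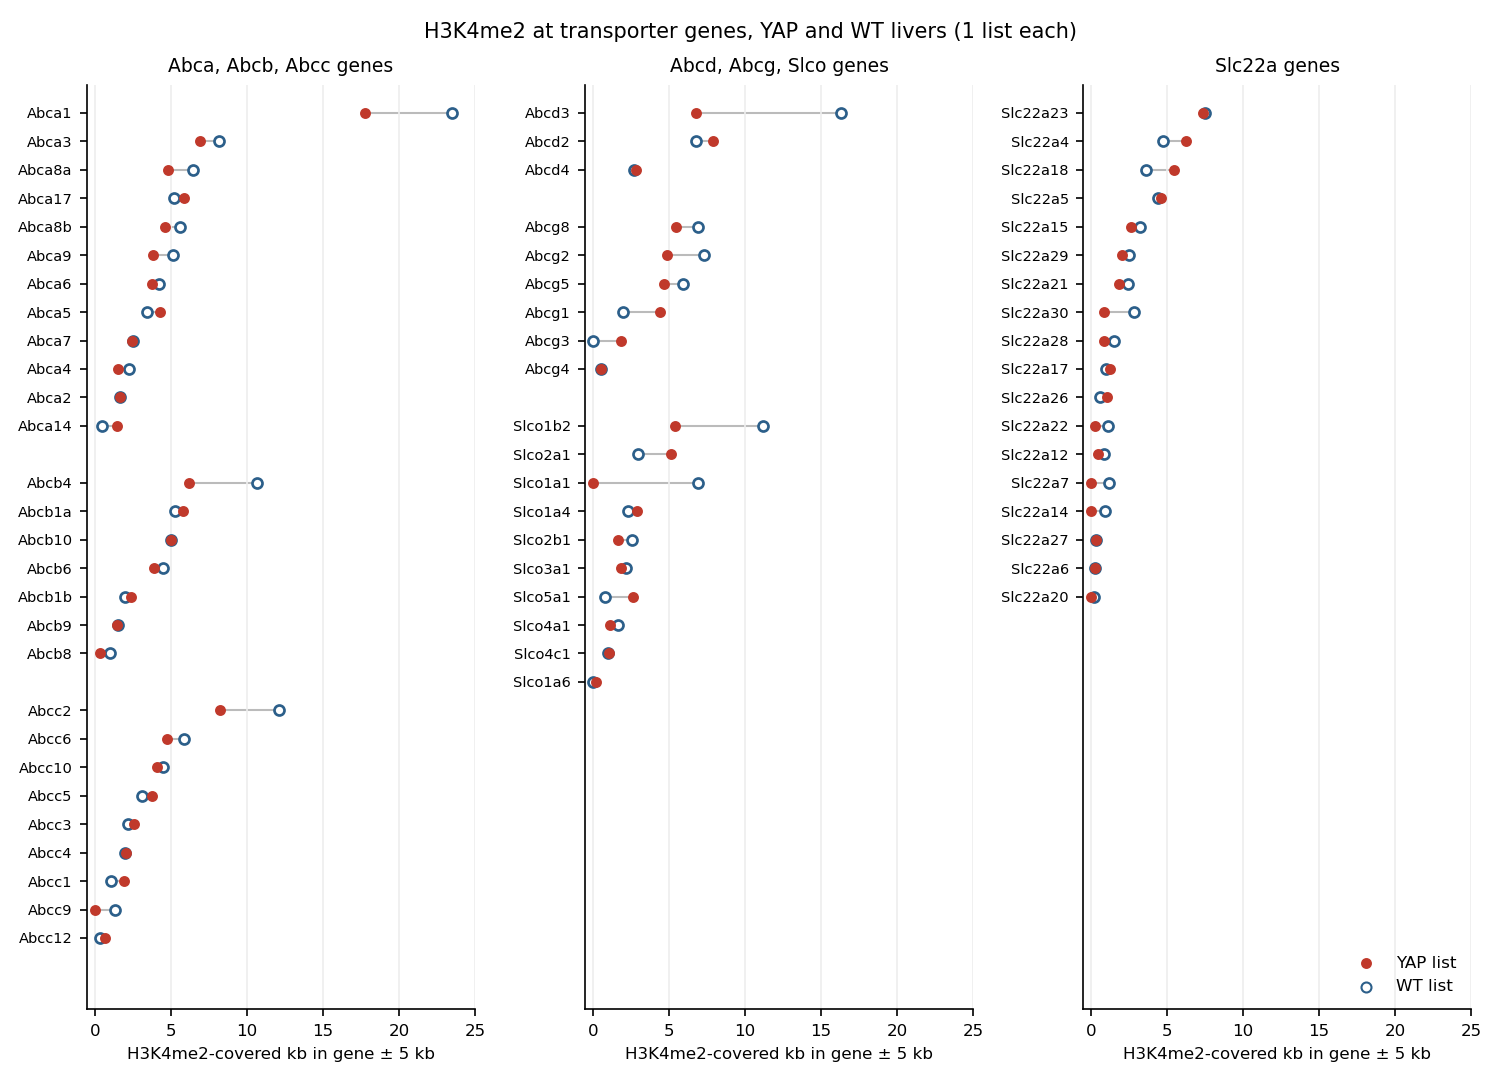
H3K4me2-covered kb in the gene body with 5 kb on both sides (horizontal axis) for 65 of the 68 transporter genes with any, grouped by family and ordered by the sum of both lists; filled red points are the YAP list, open blue points the WT list, 1 list each, so there are no error bars. The red point lies far left of the blue one at Abcd3 (6.77 against 16.3 kb), Slco1a1 (0 against 6.88 kb) and Slco1b2 (5.39 against 11.2 kb), and most other pairs lie close together.

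Among families, the sum was lower in YAP in all 7. It was lowest relative to WT in the Slco genes (22.0 kb in YAP and 31.6 kb in WT) and the Abcd genes (21.8 and 29.9 kb), each pulled by 1 or 2 genes, since 5 of 10 Slco genes and 3 of 4 Abcd genes had more bases in YAP. The Abca genes had 58.9 kb in YAP and 68.5 kb in WT, with fewer in YAP at 8 of 12. The Slc22a genes had 37.7 kb in YAP and 43.2 kb in WT, with fewer in YAP at 12 of 19, and their median log2, -0.25, was the lowest of the families. Abcb genes gave 26.8 and 31.9 kb, Abcc genes 28.2 and 32.4 kb, and Abcg genes 21.8 and 22.6 kb, in YAP and in WT. No H3K4me2 was listed in either genotype at 16 members (19.0%, against 31.9% of all protein-coding genes), among them Slc22a2 and Slc22a8 of the kidney and Slco1c1 of the brain.

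Genes for uptake across the blood-facing membrane included 2 of the largest differences. Slco1a1, which encodes the organic anion transporter OATP1A1 of male mouse liver, had 0 kb in YAP and 6.88 kb in WT. The WT list held 4 regions there, the longest of them 6164 bp (chr6:141941308-141947471), across the promoter and the first kilobases of the gene. The YAP list held none. Of the 67 members with a promoter window, Slco1a1 and Abcc9, a subunit of potassium channels, were the 2 with H3K4me2 on it in WT alone (2.98% of 17492 genes), and Abcg3 and Slc22a27 the 2 with it in YAP alone (2.85%). The call at Slc22a27 rests on the edge of a region found in both lists, with 0.327 kb in YAP and 0.301 kb in WT. Most promoters did not differ, since 34 carried it in both lists (48.9% of all genes) and 29 in neither (45.2%).

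Slco1b2, the OATP1B2 gene for bilirubin and drug uptake, kept its start in both lists. It had 5.39 kb in 5 regions in YAP and 11.2 kb in 6 regions in WT. The WT list went on from chr6:141636515 with 3 more regions, and the YAP list ended at 141635924, so the last listed base lay 6.5 kb from the gene start in YAP and 12.0 kb in WT. Slco1a4, the OATP1A4 gene that lies between these, had slightly more in YAP, 2.88 kb against 2.30 kb in WT. Over the whole Slco1 cluster of 6 genes and 808.6 kb, H3K4me2 came to 10.6 kb in 15 regions in YAP and 25.9 kb in 21 regions in WT. Neither list of H3K4me1 or of LSD1 held a region in the cluster. Slco1a genes resemble each other in sequence, so reads could have been divided among them or left out, and their values are less certain.

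**Figure D2:**
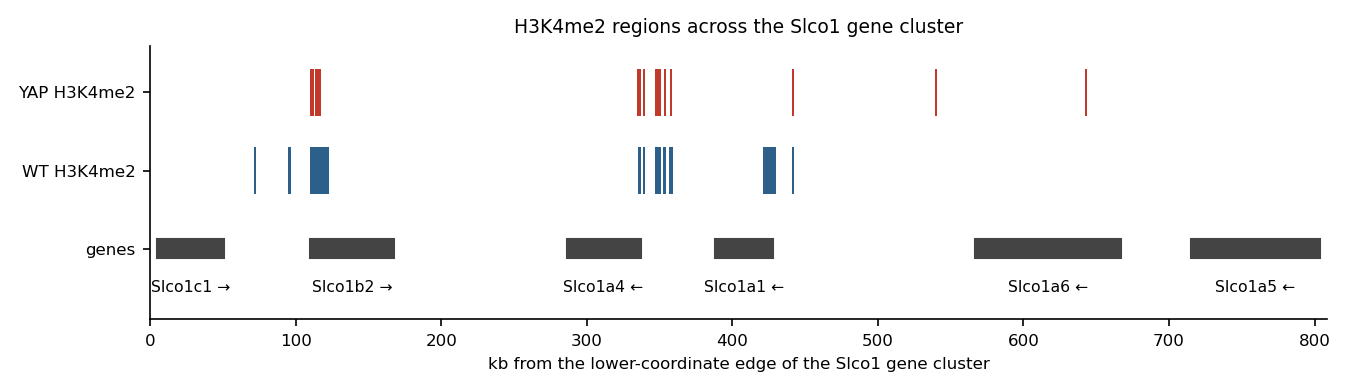
H3K4me2 regions (red, YAP list; blue, WT list) and genes (grey, with arrows for the direction of transcription) over the 808.6 kb of the Slco1 cluster on chromosome 6, by kb from its lower-coordinate edge. The block of WT regions at the start of Slco1a1 has no counterpart in YAP, the block at Slco1b2 is shorter in YAP, and the regions at Slco1a4 are present in both.

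The Slco1a1 gene is known to be expressed far more in male than in female mouse liver, and the labels do not give sex. All 4 genes of chromosome Y looked at, Ddx3y, Eif2s3y, Kdm5d and Uty, had H3K4me2 in both lists, with Ddx3y at 2.21 kb in YAP and 2.35 kb in WT. Xist, which marks the inactive X chromosome, was listed with none in either genotype. These lists pool 2 replicates each, so the sex of a single mouse was not tested.

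The other uptake genes carried less H3K4me2. Slco2b1, the OATP2B1 gene, had 1.68 kb in YAP and 2.56 kb in WT. Slc22a7, which encodes the organic anion transporter OAT2, had 0 kb in YAP and 1.20 kb in WT, in 1 region (chr17:46437266-46438465) that also lies within 5 kb of Ttbk1.

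Export into bile showed a smaller difference. The 7 genes placed at the canalicular membrane had 37.6 kb of H3K4me2 in YAP and 50.2 kb in WT, with fewer bases in YAP at 5. Abcb4, the phosphatidylcholine floppase that puts phospholipid into bile, had 6.16 kb in 8 regions in YAP and 10.7 kb in 9 regions in WT. The first 3 kb of the gene were covered in both, and beyond that the YAP list held short pieces where the WT list was nearly continuous. Abcc2, the MRP2 exporter of conjugated bilirubin, had 8.26 kb in YAP and 12.1 kb in WT. Abcg2, an exporter of drugs and sulphate conjugates, had 4.87 kb in YAP and 7.32 kb in WT.

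Abcg5 and Abcg8 make up the sterol exporter of bile and lie head to head on chromosome 17. Abcg5 had 4.66 kb in YAP and 5.90 kb in WT, and Abcg8 5.44 kb in YAP and 6.91 kb in WT. Their windows overlap, so these differences are in part the same regions. Abcb1a and Abcb1b, which encode the P-glycoproteins, ran the other way by small amounts. Abcb1a had 5.80 kb in YAP and 5.26 kb in WT, and Abcb1b 2.39 kb in YAP and 2.01 kb in WT. In each list 1 region inside Abcb1a, of 2624 bp in YAP and 2658 bp in WT, lay on a promoter window of Rundc3b. The sequences of Abcb1a and Abcb1b are close enough for reads to be exchanged between them. Abcb1a, Abcb1b and Abcb4 are neighbours on chromosome 5, and the stretch of 402.1 kb that holds them had 14.9 kb in YAP and 18.7 kb in WT, so the difference of Abcb4 was not shared by the P-glycoprotein genes.

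Exporters of the blood-facing membrane were mixed. Abca1, which loads cholesterol and phospholipid onto nascent HDL, had the most H3K4me2 of all 84 genes, 17.8 kb in 15 regions in YAP and 23.5 kb in 18 regions in WT. The 3 WT regions farthest inside the gene, from chr4:53118744 to 53121490, had no counterpart in YAP. Abcc6, the gene mutated in pseudoxanthoma elasticum, had 4.76 kb in YAP and 5.85 kb in WT. Abcc3 and Abcc4, the MRP3 and MRP4 exporters that return conjugates and bile acids to blood, had 2.61 and 2.08 kb in YAP and 2.16 and 1.97 kb in WT. At both of them the lists differed by less than the length of 1 typical region found in both lists, 624 bp by the median in YAP.

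Abcd3 encodes PMP70 of the peroxisome membrane, which imports bile acid precursors and branched-chain fatty acids for shortening. It had 6.77 kb in 6 regions in YAP and 16.3 kb in 15 regions in WT, a log2 of -1.21 and a difference of -9.58 kb, the largest of any member. From the promoter into the gene the YAP list reached 6.9 kb and the WT list 23.5 kb. The WT region over the first part of the gene was 8008 bp long with an authors' score of 463, and the YAP region there 4490 bp long with a score of 302. The 13 WT regions beyond it scored between 25 and 86. Abcd2, an importer of very long chain fatty acids in the same membrane, had 7.87 kb in YAP and 6.79 kb in WT.

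**Figure D3:**
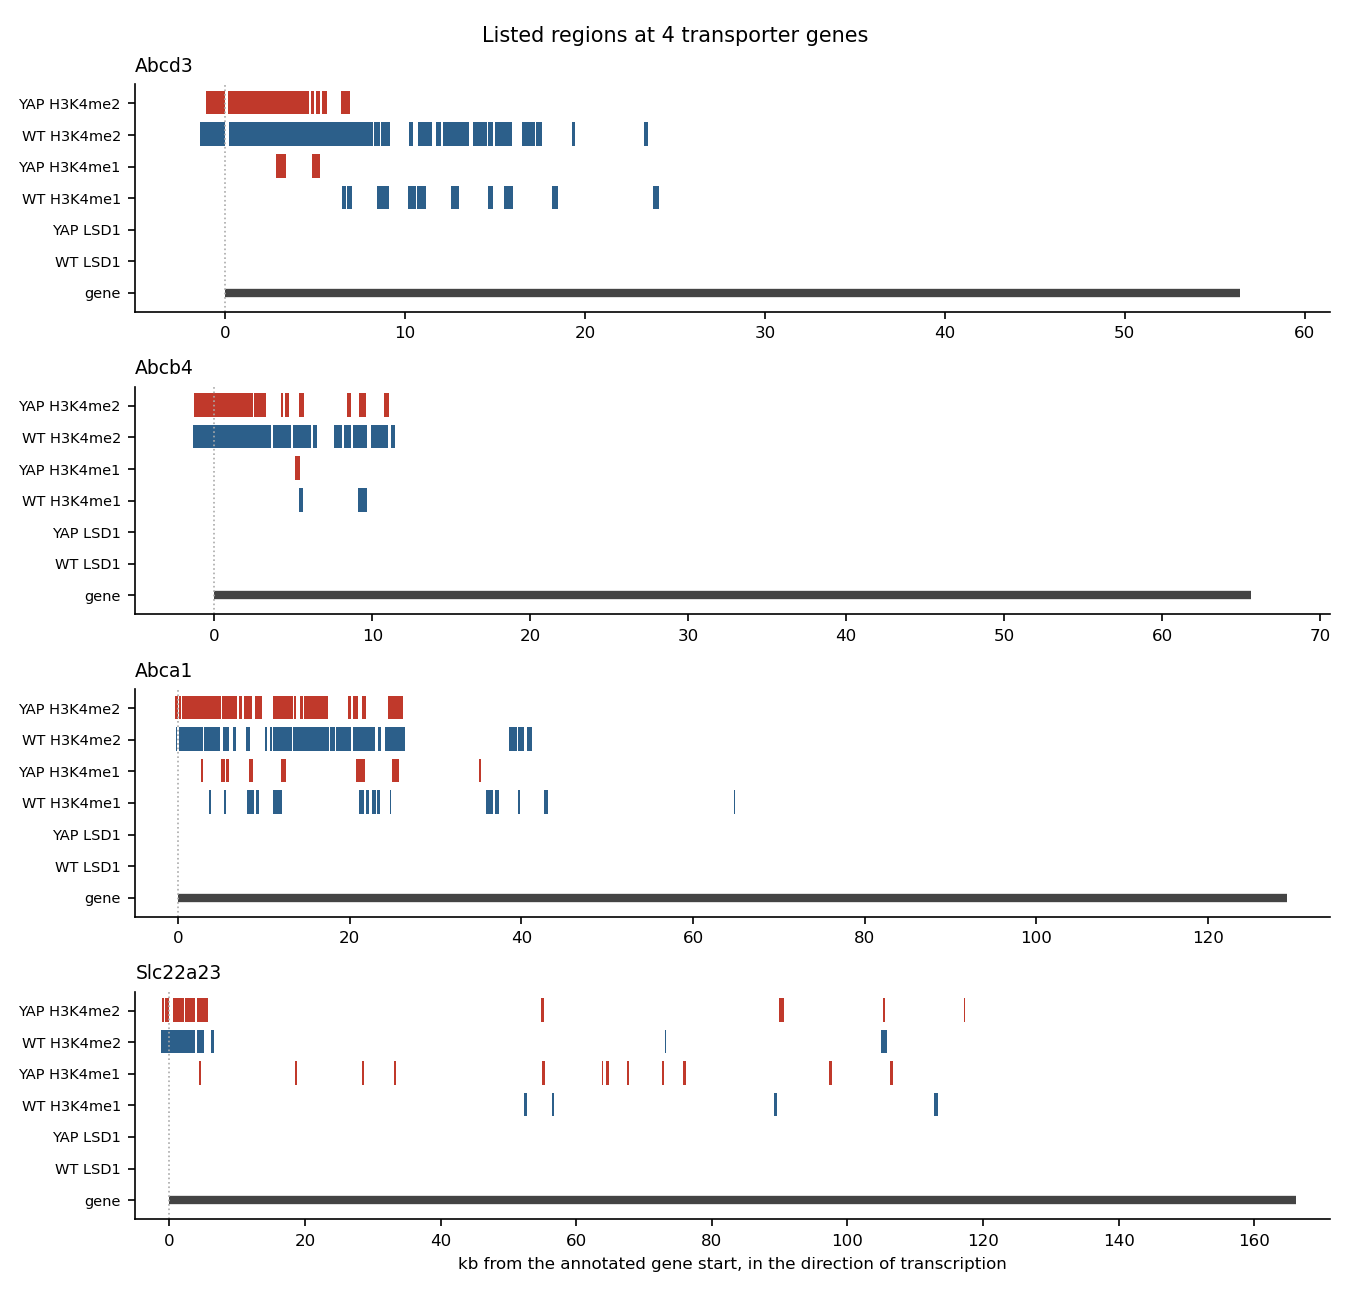
Regions of H3K4me2, H3K4me1 and LSD1 (rows; red, YAP list; blue, WT list) at Abcd3, Abcb4, Abca1 and Slc22a23, by kb from the annotated gene start in the direction of transcription, with the gene body as a grey line. H3K4me2 at Abcd3 ends 6.9 kb from the start in YAP and 23.5 kb in WT, the WT H3K4me1 regions of Abcd3 lie beyond the YAP ones, Slc22a23 has 12 H3K4me1 regions in YAP and 5 in WT, and no LSD1 region lies at any of the 4 genes.

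Of mitochondrial transporters, Abcb8 had 0.333 kb in YAP and 0.983 kb in WT, and Abcb6 had 3.87 kb in YAP and 4.46 kb in WT. The carnitine group, Slc22a5 (the OCTN2 carnitine transporter), Slc22a4 (the ergothioneine transporter) and Slc22a21, had 12.7 kb in YAP and 11.6 kb in WT, with Slc22a4 at 6.25 and 4.75 kb. All regions of Slc22a21 (1.87 kb in YAP and 2.45 kb in WT) also lie in the window of Slc22a4, so these sums count them at both genes. Slc22a18, an imprinted gene near Cdkn1c, had 5.46 kb in YAP and 3.63 kb in WT. Of these bases, 2213 in YAP and 2008 in WT lay in its flank, in a region on the promoter window of Phlda2. Abca3, whose protein packs surfactant lipid in lung, had 6.91 kb in YAP and 8.18 kb in WT.

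Past a log2 of 1 in size, 7 of the 68 genes had less in YAP, against 2.25% of all genes with any H3K4me2, and 2 had more, against 3.34%. The 7 were Slco1a1, Abcd3, Slc22a30, Slc22a7, Abcc9, Slc22a14 and Slc22a22. Slc22a30, a rodent gene of unknown substrate in the chromosome 19 cluster of Slc22a genes, had 0.831 kb in YAP and 2.84 kb in WT. The genes Abcc9, Slc22a14 and Slc22a22, named after their values were seen, had at most 1.32 kb in any list, and both WT regions of Slc22a14 lay in the 5 kb beside the gene and not within it. The 2 genes with more were Slco5a1, 2.65 kb in YAP and 0.799 kb in WT, and Abcg3, a relative of Abcg2 in the mouse, 1.88 kb in YAP and 0 kb in WT. At Abcg3 the YAP list held 5 short regions at the gene start, of 253 to 641 bp. Abcg1, which moves cholesterol out of macrophages, was just under the line with 4.40 kb in YAP and 1.99 kb in WT, and was also named after its value was seen.

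Markers of other liver cells differed between the lists as well. All 6 macrophage markers had more H3K4me2 in YAP (14.7 against 5.15 kb in WT), and Adgre1, Clec4f, Csf1r and Cd5l were at 0 in WT. Endothelial markers had more in YAP at 4 of the 4 with any. Of biliary markers Krt7, Krt19 and Cftr were at 0 in both lists and the sum was 9.05 kb in YAP and 5.09 kb in WT. That sum rests largely on Spp1, with 3.75 kb in YAP and 0.619 kb in WT. Of the 3 biliary markers with any, 2 had more in YAP and 1 had fewer. Stellate markers summed to 2.15 kb in YAP and 8.17 kb in WT, largely Reln (1.52 and 6.38 kb), with 2 fewer in YAP and 1 more. Lymphocyte markers summed to 5.10 and 2.24 kb, largely Ptprc (2.70 and 0 kb). Hepatocyte markers had less in YAP at 8 of 8 (58.3 against 74.4 kb in WT), beside the liver transporters with less. Over all protein-coding genes with any H3K4me2, 59.1% had less in YAP and 40.8% had more. The part of cell types in the differences above was not tested.

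Summed over the members, the 2 genotypes differed least around the gene starts and most from 5 to 20 kb downstream. For 67 members a RefSeq window gave the direction of transcription, and H3K4me2 was counted by distance from the annotated start. Counting by distance was not planned and was added after the data were seen. The count ran on to 5 kb past the far end of the gene, so downstream sums include flank. In the first 2 kb downstream the sums were 53.2 kb in YAP and 54.2 kb in WT, a ratio of 0.982, equal to that of all protein-coding genes. From 5 to 10 kb the ratio was 0.553 (14.1 kb in YAP and 25.5 kb in WT), where all genes had 0.858. From 10 to 20 kb it was 0.447 (13.0 and 29.1 kb), where all genes had 0.896. Beyond 20 kb it was 0.759, where all genes had 0.934. Upstream, from 5 to 2 kb before the start, it was 0.702 (4.4 kb in YAP and 6.3 kb in WT), where all genes had 0.892. Everything more than 2 kb from the start, on either side, gave 97.4 kb in YAP and 139 kb in WT, a ratio of 0.700 against 0.907 for all genes, and 0.808 without the Slco1 genes, Abca1 and Abcd3.

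**Figure D4:**
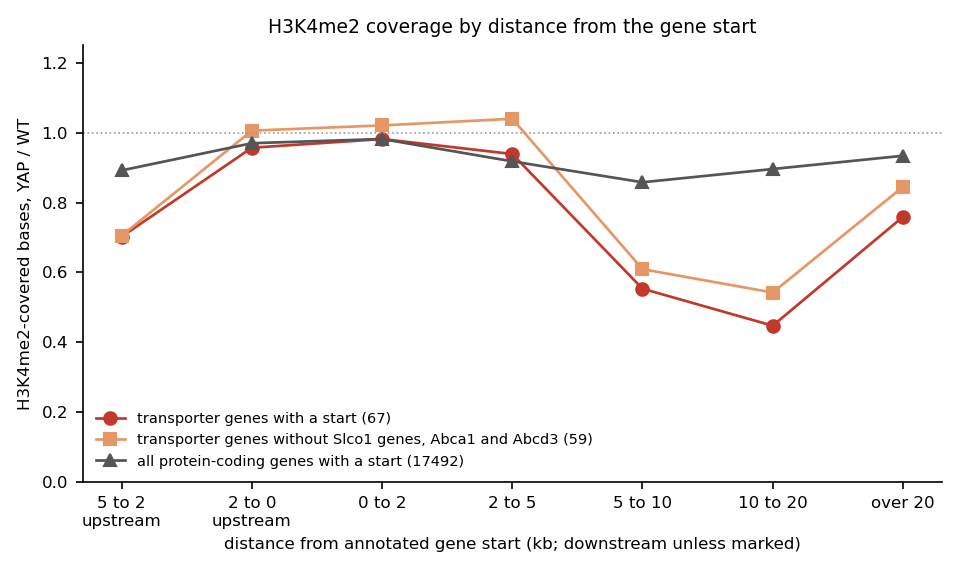
Ratio of H3K4me2-covered bases, YAP over WT (vertical axis), by distance from the annotated gene start in kb (horizontal axis), for 67 transporter genes (circles), 59 of them without the Slco1 genes, Abca1 and Abcd3 (squares), and 17492 protein-coding genes (triangles). All 3 lines are near 1 around the start, and the transporters drop to 0.553 and 0.447 from 5 to 10 and 10 to 20 kb, where all genes stay at 0.858 and 0.896.

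Gene by gene, 20 of the 67 had H3K4me2 between 5 and 20 kb downstream, and 16 of these 20 (80.0%) had fewer bases in YAP, against 57.4% of 4517 protein-coding genes. This stretch is where the ratios above were lowest. The counts by gene here therefore describe the same bases again and are not separate support. Abcd3 had 1.05 kb in YAP and 9.94 kb in WT in that stretch, and Slco1b2 0.728 and 5.96 kb. Abcb4 had 1.28 kb in YAP and 4.51 kb in WT, and Abcc2 0.964 and 3.33 kb. Abca1 barely differed there, with 9.71 kb in YAP and 10.7 kb in WT. For short genes the stretch ran past the gene end into the 5 kb flank. The bases of Abcb6 (1.56 kb in YAP and 2.16 kb in WT), Slc22a12 (0.435 and 0.874 kb) and Slc22a6 (0.278 and 0.231 kb) lay wholly in that flank. Those of Abcb6 are near Zfand2b and those of Slc22a12 near Nrxn2. Several of the 20 have an annotated boundary far from the start in use: Abcg2, Abcg8, Slc22a15 and Slco2b1 had no H3K4me2 within 2 kb of it and had it in both lists on a promoter window farther in. Among members with H3K4me2 within 2 kb of the start, 10 of 13 (76.9%), Abcb6 among them, had fewer bases from 5 to 20 kb, against 58.5% of all such genes.

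Genes with more H3K4me2 more often had fewer bases in YAP, over all protein-coding genes as well as among the members. Members with a mean of 5 kb or more over both lists had fewer bases in YAP at 13 of 18 (72.2%, against 66.4% of all genes of that class), with sums of 119 kb in YAP and 154 kb in WT, a ratio of 0.768 against 0.914. Members with 2 to 5 kb had fewer at 12 of 24 (50.0%, against 61.5% of all genes) and those under 2 kb at 13 of 26 (50.0%, against 45.5%). The region numbers were also lower in sum, with 250 in YAP and 279 in WT over genes. Fewer regions were listed in YAP at 33 of the 68 (39.0% of all genes) and more at 21 (33.1%). They did not follow the bases in every family: Slc22a genes had 46 in each list, and Abcg genes 32 in YAP and 30 in WT.

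The regions themselves were compared as well. Of the 237 YAP regions of H3K4me2 at members, 78.9% were found in the WT list (Wilson 95% interval 73.3% to 83.6%), close to the 78.4% of the whole YAP list. Of the 266 WT regions, 64.3% were found in the YAP list (58.4% to 69.8%), where the whole WT list had 73.6%, above that interval. Intervals cover counting error only, and neighbouring regions of a gene are not independent. Unshared regions were short, with medians of 264.5 bp for 50 in YAP and 306 bp for 95 in WT. The longest unshared region in YAP was 911 bp, inside Slco5a1, and in WT it was the 6164 bp at Slco1a1.

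Regions of H3K4me1 were fewer and repeated less between lists. A region lay at 18 members, with fewer bases in YAP than in WT at 11 (43.8% of 3170 genes with any) and more at 7 (56.2%), and sums of 12.1 kb in YAP and 16.0 kb in WT. At members 6 of 32 YAP regions, or 18.8% (Wilson 95% interval 8.89% to 35.3%), were found in the WT list, and 23.5% of the whole YAP list were. Of the WT regions 6 of 43, or 14.0% (6.56% to 27.3%), were found in the YAP list, against 25.5% of the whole WT list. Both whole-list shares lie within these intervals, which are wide, so no difference from the lists was detectable at the transporters and none is excluded. Those in YAP only were at Abcc5, Abcd2 and Slc22a29 (3.57% of members, against 4.98% of all genes), and those in WT only at Abca17, Abca6, Abca8a, Abca8b, Abcg2, Abcg5 and Slc22a5 (8.33% against 3.17%), while 8 genes had some in both (9.52% against 6.33%). All 6 Abca genes with H3K4me1 had less in YAP, 4.27 kb against 8.30 kb in WT, and no Slco gene had any. The only region of Abca17 (chr17:24355324-24355554, WT) lies in its flank, inside Abca3, and was counted at both. With such regions counted once, H3K4me1 was in WT only at 6 members. Abca6, Abca8a and Abca8b each rest on 1 WT region, of 301, 185 and 222 bp. Both H3K4me1 lists are empty on the X chromosome.

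Most of this mark lay at Abca1, Abcd3 and Slc22a23. Abca1 had 9 regions and 4.07 kb in YAP and 15 regions and 6.66 kb in WT. Abcd3 had 2 regions and 1003 bases in YAP and 10 regions and 3912 bases in WT. The WT regions of Abcd3 lay mostly on the stretch of the gene that carried H3K4me2 in WT only, and the 2 YAP regions lay nearer to the start. Slc22a23, an orphan transporter, ran the other way with 12 regions and 4.05 kb in YAP and 5 regions and 1.46 kb in WT, none of them shared, although its H3K4me2 was 7.38 kb in YAP and 7.52 kb in WT. Of the other genes with at least 2 regions in a list, Abcb1a had 2 in YAP and 1 in WT, while Abcb4 and Abca3 had 1 in YAP and 2 in WT each.

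LSD1 lay at 21 of the 84 genes. The YAP list had 12 regions there and the WT list 13, although the YAP list as a whole, with 2949 regions against 1500, was the longer. Of these, 2 were common to both lists: 16.7% of the YAP regions (Wilson 95% interval 4.70% to 44.8%), against 17.2% of the whole YAP list, and 15.4% of the WT regions (4.33% to 42.2%), against 33.8% of the whole WT list. Both whole-list shares lie within the intervals, so the overlap at members was not distinguishable from that of the lists. In YAP only were Abca3, Abca4, Abca6, Abcb1a, Abcc3, Abcc5, Slc22a18, Slc22a29, Slc22a4 and Slc22a8 (10 genes, 11.9%, against 8.08% of all protein-coding genes). In WT only were Abca17, Abcb10, Abcc2, Abcc6, Abcd2, Slc22a15, Slc22a7 and Slco2a1 (8 genes, 9.52%, against 2.86%). In both were Abcc10, Abcg8 and Slc22a6 (3.57%, against 3.05%). When the YAP list was shortened by score to the length of the WT list, LSD1 was in YAP alone at 4 genes and in WT alone at 9, so the number in YAP only rests on the longer list.

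**Figure D5:**
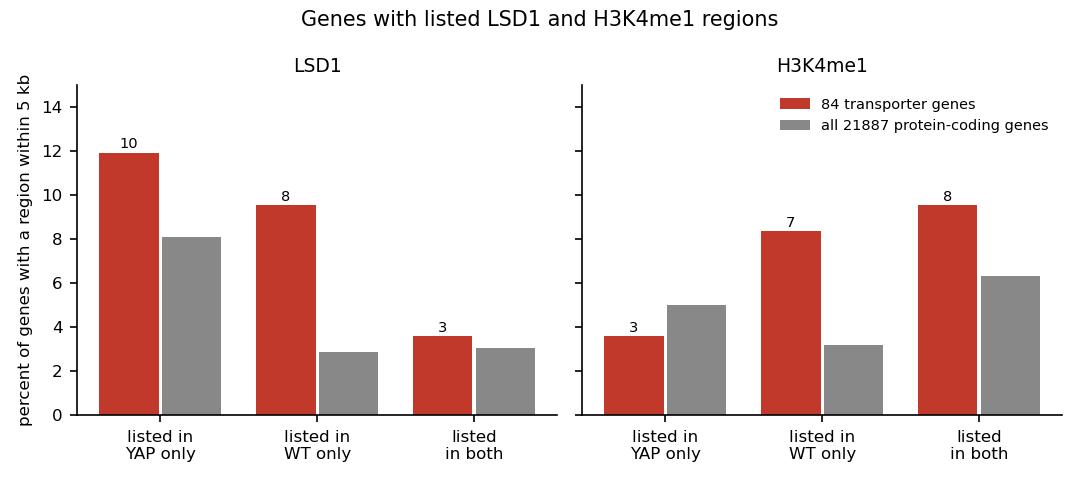
Percent of genes with a listed LSD1 region (left) or H3K4me1 region (right) in the gene body or within 5 kb, by whether the region was listed in YAP only, WT only or both; red bars are the 84 transporter genes, with the number of genes above each bar, and grey bars all 21887 protein-coding genes. For LSD1 the red bars stand for 10 genes listed in YAP alone, 8 in WT alone and 3 in both lists.

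At promoter windows LSD1 was rare. It lay on that of Abcc5, a cyclic nucleotide exporter, in YAP only (chr16:20426292-20426691, authors' score 800), on that of Slc22a15 in WT only (chr3:101924265-101924660, score 579), and on that of Abcc10, the MRP7 gene, in both (chr17:46328076-46328475 in YAP and chr17:46328095-46328490 in WT, score 1000 in each). These are 1 gene each of 67, against 3.64%, 1.42% and 1.11% of 17492 genes. Abcc5 and Abcc10 differed little in H3K4me2, with 3.77 and 4.09 kb in YAP and 3.13 and 4.47 kb in WT. The other common region lay inside Abcg8, at chr17:84693693-84694092 in YAP and chr17:84693719-84694114 in WT, away from H3K4me2 in both. Slc22a6, the organic anion transporter OAT1 of the kidney, had a separate region in each list, and its YAP region is the one that was also counted at Slc22a8.

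LSD1 stood on H3K4me2 of the same genotype in 6 of 12 YAP regions and 8 of 13 WT regions. The same share was not counted over the whole lists, so these numbers cannot be called high or low. At Slc22a7, the WT-only LSD1 region (chr17:46438096-46438695) overlapped the WT-only H3K4me2 described above, so both were listed in WT and neither in YAP. At Abcc2 a WT-only LSD1 region lay just upstream of the start (chr19:43780365-43780760, score 845), on H3K4me2 of both genotypes. Abcc6, which had 2 WT-only regions, shares both with the 5 kb around Nomo1, and Abcd2 had 1 at its upper-coordinate end (chr15:91191258-91191653, score 925). In YAP, regions of score 1000 lay inside Slc22a4 (chr11:54006856-54007255) and Abca4 (chr3:122122027-122122426), neither on H3K4me2 of YAP. The YAP region of Abca3 is near Rnps1 and that of Abcb1a is near Rundc3b, so neither can be assigned to the transporter alone.

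Of the 6 genes with the largest H3K4me2 losses in kb, Abcc2 had LSD1 in WT only, while Abcd3, Slco1a1, Slco1b2, Abca1 and Abcb4 had none in either genotype, as did 63 of the 84 members (75.0%) and 86.0% of all protein-coding genes. H3K4me2 was lower in YAP at 4 of 9 genes whose LSD1 was listed in YAP alone, at 4 of 8 where it was listed in WT alone, at 2 of 3 with it in both lists and at 28 of 48 with none. Over all protein-coding genes these shares were 59.9%, 69.7%, 66.4% and 58.1%.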

How the data were processed

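The 84 genes, the lists of other genes and the measures were chosen with earlier results of these data known. Per the labels, chromatin was cut with micrococcal nuclease and libraries were amplified by PCR. Per the submitters' processing notes, reads were handled with deepTools 3.3.0, bedtools 2.26.0, Picard 1.126, SAMtools 1.7, BWA and Trimmomatic 0.39 on build mm10. Which peak caller and threshold made the lists, and how inputs entered, is not given in the sources used here. The authors deposited 1 list per antibody and genotype, with both replicates combined in a manner not stated. The score deposited by the authors was used to rank regions within a list and to describe them, and the signal deposited by the authors only to order equal scores; neither was compared between genotypes as a test. Micrococcal nuclease cuts between nucleosomes, so region edges can follow nucleosomes.

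Overlapping or touching regions of a list were merged. Gene positions came from RefSeq on GRCm38.p6, whose coordinates are those of mm10; strand came from the RefSeq promoter windows, which 67 members have and 17 lack, and the start is the outermost annotated boundary, which may not be the start in use. Covered bases and region numbers were taken over the gene body and 5 kb on both sides, so regions near other genes were counted too, and 13 H3K4me2 regions in each list lay at more than 1 member. A gene was called in YAP only, WT only or both by 1 base of overlap. Logs are log2 of YAP over WT with 500 bases added. Shares carry Wilson 95% intervals. The work was done in Python 3.11.15 with pandas 2.3.3, numpy 2.4.6 and matplotlib 3.10.9, and overlap counts were checked against bedtools 2.31.1.

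Genes named are members with LSD1, those past a log2 of 1 with at least 2 kb in a list, the 10 with most H3K4me2, those with at least 2 H3K4me1 regions in a list, 20 liver transporters, up to 4 genes from each other list, and any whose naming after their values were seen is stated. Further members are named where a count of a class or role is spelled out. A few genes are counted in the totals and not reported here by name. Alternatives were other flanks, the upper part of each list by score, lists of equal length, other overlaps, scaling by list total and other added bases.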

Additional observations from a re-analysis of the deposited data

How the results depend on the processing

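No paired analysis was possible because each deposited list pools both replicates, and for the same reason no replicate could be left out. No single value changed sign, and the balance of LSD1 turned over under 1 alternative: with lists of equal length LSD1 was in YAP only at 4 members and in WT only at 9, against 10 and 8 as reported. The counts of members with fewer (35 to 47) and more (24 to 33) H3K4me2 bases in YAP, and the median log2 (-0.17 to -0.02), stayed within the limits set for them under the alternatives tried. Those limits were wide. For the median they ran from -0.27 to 0.061, which takes in no difference and the -0.06 of all genes. Staying within them therefore does not show a stable difference. Divided by the total of its list, the split was 35 fewer and 33 more, and it was the same with lists of equal length. With each list limited to the 50% of its regions with the highest scores, LSD1 was in YAP only at 5 members and in WT only at 4, and H3K4me1 in YAP only at 1 and in WT only at 4. With 20 kb on both sides H3K4me1 was in YAP only at 5. The share of YAP regions of H3K4me2 found in WT was 89.9% within 1 kb and 99.1% among those regions; that of WT regions found in YAP was 56.8% where 50% of a region had to be covered, 78.9% within 1 kb and 91.5% among those regions. The ratio of bases over 2 kb from the start was itself added after the data were seen, as were its alternatives. It was 0.742 without the Slco1 genes, 0.743 without Abca1 and Abcd3, 0.808 without all of these, 0.681 with those regions and 0.672 without flank. Of the 9 genes past a log2 of 1, Slco1a1 stayed past it under these alternatives and the other 8 did not. With the highest-scoring 50% of regions Abcd3 had -0.85, Slc22a30 -0.59, Abcc9 -0.51 and Abcg3 0.59, and Slc22a14 and Slc22a22 had 0.00. Slc22a14 also had 0.00 without flank and with 1 kb on both sides, since its regions lie in the flank. With 2000 bases added, 7 were no longer past it, at -0.77 for Slc22a30, -0.68 for Slc22a7, -0.73 for Abcc9, -0.55 for Slc22a14, -0.45 for Slc22a22, 0.73 for Slco5a1 and 0.96 for Abcg3. The cause of these shifts was not tested. The 2 lists per antibody limit every difference, and a region missing from a list may lie just under an unknown threshold.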

Other observations

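Other genes of hepatic transport differed in both directions. Of 20 further liver transport genes, 19 had H3K4me2 and 13 had fewer bases in YAP, with a median log2 of -0.30. Of all genes 59.1% had fewer, and 66.4% of those with a mean of 5 kb or more over both lists. Among the 19, 3 were at a log2 of -1 or lower and 2 at 1 or higher. No test was made. Slc10a1, the sodium-dependent bile acid importer, had 6.16 kb in YAP and 14.2 kb in WT, and Aqp9, a glycerol channel, 5.55 kb in YAP and 13.6 kb in WT. Slc7a2, a cationic amino acid transporter, had 11.0 kb in YAP and 25.7 kb in WT. Cd36, a fatty acid receptor also found on macrophages, ran the other way with 10.9 kb in YAP and 2.23 kb in WT.

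Of 18 genes for transcription factors known to regulate transporters, 14 had fewer bases in YAP, with a median log2 of -0.30. Over all protein-coding genes with any H3K4me2 the share with fewer was 59.1%, and 66.4% where the mean of both lists was 5 kb or more. No test was made. Nr1h4, the bile acid receptor FXR, had 11.8 kb in YAP and 20.8 kb in WT, Nr1i3, the receptor CAR, 2.15 kb in YAP and 5.85 kb in WT, and Ppara 16.0 kb in YAP and 29.3 kb in WT. Cux2, a factor of female mouse liver, had 6.83 kb in YAP and 2.09 kb in WT. Among membrane partners of transporters 5 of 9 had fewer bases in YAP, and Tmem30a, the partner of flippases, had 4.36 kb in YAP and 13.0 kb in WT. The ABC genes whose proteins do not span membranes, Abce1 and Abcf1 to Abcf3, all had slightly fewer bases in YAP (16.4 against 17.4 kb in WT).

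Promoter letters were counted in 78 RefSeq windows of 67 members and in 21263 windows of all protein-coding genes, on both strands. GGAATG stood in 26.9% of member windows and 13.6% of all, TTCNNNGAA in 12.8% and 7.69%, AGGTCA in 14.1% and 14.7%, and GTTAAT in 5.13% and 6.25%. The NFI palindrome stood in 0 member windows and 0.0329% of all. Windows of 1 gene overlap in part, and no test was made.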
